A study of Homo sapiens with 39 samples.

Results

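Of the 60671 genes measured in this study, 9 genes of the SOX family other than SOX10 are described here. They are SOX9, SOX8, SOX2, SOX4, SOX5, SOX6, SOX11, SOX12 and SOX13, chosen by gene symbol and not by their values. The question was whether any of them rose where SOX10 was lower. The RNA came from the human melanoma cell lines A375 and WM115, either unedited (WT) or as clones lacking R1 or R4, enhancer regions near SOX10. The 18 A375 libraries are WT (n = 4), clones 1.1 (n = 3) and 1.2 (n = 4) without R1, and clones 4.1 (n = 4) and 4.2 (n = 3) without R4. The 21 WM115 libraries are WT (n = 4), clones 1.1 (n = 5) and 1.2 (n = 3) without R1, clones 4.1 and 4.2 without R4 (n = 3 each), and clone 1.3 (n = 3). Clone 1.3 is numbered among the R1 clones in its titles and has an R4 genotype label, so it was kept as a clone of its own. Libraries of 1 clone repeat that clone, and nothing in the labels says that they came from separate cultures. The p-values over libraries therefore measure the spread between libraries, which may be technical.

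SOX proteins are transcription factors that bind DNA through a shared HMG box. SOX8, SOX9 and SOX10 form the SOXE group, which acts in the neural crest, the embryonic tissue from which melanocytes and glia arise. SOX10 drives MITF and the pigment genes, while SOX9 is best known from cartilage, where it acts with the SOXD proteins SOX5 and SOX6. SOXD proteins lack an activation domain of their own and modulate other SOX proteins at shared sites. SOX4, SOX11 and SOX12 form the SOXC group of neural and other progenitors, and SOX2 belongs to the SOXB1 group of stem and neural progenitor cells.

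Values are TPM, a share of each library corrected for gene length, so levels of different genes can be compared. Read depth is unknown, so "listed at 0" is written where the table gives 0 TPM. Differences between groups are on the log2(TPM + 1) scale, which understates changes of genes near or under 1 TPM. A gene passed the test where its adjusted p in limma (Benjamini-Hochberg over all genes tested) was under 0.05, and "rose" or "fell" is written only of such genes. A gene was tested where it reached 1 TPM in at least 3 libraries of a line. All 9 members met this in both lines. SOX9 did so only through the groups in which it was high, with 4 of 18 A375 libraries and 4 of 21 WM115 libraries at 1 TPM or more. SOX8 did so too, through WT and clone 4.1 in A375 (8 libraries) and through the clones in WM115 (16 libraries, none of them WT). A gene that enters the test in this way had to differ. The counts of members that passed, and the p-values of SOX9 and SOX8, are therefore given as a description.

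Libraries of 1 group did not always resemble each other. In WM115 clone 1.2 the third library had 9.56 TPM of SOX10, against 272 and 279 TPM in the other libraries of the clone. Its summed level of 7 melanocytic markers, of which SOX10 is 1, was 27.3 TPM, against 642 and 877 TPM. Correlations of the libraries' deviations from their line's mean placed the second library of clone 1.3 closest to a library of clone 1.2 (r = 0.581 across genes, at most 0.0945 with its own clone). The third library of clone 1.3 was closest to a WT library (r = 0.594, at most 0.228 with its own clone). Several results that rest on these WM115 libraries are given with and without some of them, and the others with all libraries only. In A375, 9 of 18 libraries had their highest correlation with a library of another group, against 3 of 21 in WM115. For the second WT library of A375 it was 0.713 with a library of clone 4.1 (at most 0.0533 with its own group), and for the first library of clone 1.1 it was 0.331 with a library of clone 4.1 (at most -0.0418). For SOX calls in A375, the single libraries without which a call was lost are named beside it. Of the 7 melanocytic markers, 4 reached 1 TPM in a WT library of A375, where TYR was listed at 0, and all 7 did in WT libraries of WM115. Leukocyte markers summed to at most 1.19 TPM in any library.

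For SOX2 and SOX12, examples of members that were lower and higher in WM115 clone 1.2 and that have 1 RefSeq start each, the 250 bases before that start (GRCh38.p14, plus strand, 5′ to 3′) are shown, since these 2 results are described further on. Capitals mark a match, on either strand, to short forms of the sequence that SOX proteins bind. One form reads ACAAAG and another reads ACAATG. The remaining forms read TCAAAG and, in the last case, TCAATG. None of the forms overlaps another at a match shown here.
SOX2, chr3:181711675-181711924: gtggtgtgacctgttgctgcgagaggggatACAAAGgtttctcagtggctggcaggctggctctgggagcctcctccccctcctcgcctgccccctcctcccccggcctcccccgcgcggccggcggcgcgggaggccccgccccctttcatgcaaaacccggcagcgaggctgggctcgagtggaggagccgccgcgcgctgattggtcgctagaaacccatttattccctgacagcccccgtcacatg
SOX12, chr20:325302-325551: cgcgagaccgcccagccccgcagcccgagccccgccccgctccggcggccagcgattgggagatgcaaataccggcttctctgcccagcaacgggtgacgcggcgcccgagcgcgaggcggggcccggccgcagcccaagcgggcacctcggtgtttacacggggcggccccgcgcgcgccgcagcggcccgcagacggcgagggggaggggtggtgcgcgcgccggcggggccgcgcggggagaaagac
The SOX2 window holds ACAAAG once, 220 bases before the start, and the SOX12 window holds none of these letters. Of 35116 RefSeq promoter windows of this length, 33.3% hold at least 1 match. Promoter entries matched 6 of the 9 members, and 3 of those 6 held a match in at least 1 window (SOX2, SOX5 and SOX6). SOX6, which was also lower in that clone, has 5 windows, of which 2 hold no match and the others hold 1, 1 and 4.

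SOX10 itself (ENSG00000100146, chromosome 22, 37970686 to 37987422, minus strand; positions here are from GENCODE 29, GRCh38) gives the order against which the other genes can be read. It fell in A375 clone 1.2 to 443 ± 27.8 TPM (SD, n = 4) from 682 ± 35.6 TPM in WT (n = 4), a log2 difference of -0.62 (SE 0.15, limma adjusted p = 0.0135). In WM115 clone 1.2 it was at 279, 272 and 9.56 TPM, against 449 to 553 TPM in WT, and fell by 2.44 on the log2 scale (SE 0.70, adjusted p = 0.0192); without the third library the difference was -0.87 (adjusted p = 0.0123). The call in A375 clone 1.2 was lost with quantile normalization (-0.55, adjusted p = 0.0765), and that in WM115 clone 1.2 in a fit of the 2 groups alone (adjusted p = 0.149). The other 7 clones did not pass for SOX10, although its lowest A375 library belonged to clone 1.1 (381 TPM), and without the first library of that clone its difference passed (-0.66, adjusted p = 0.0366). Genes within 5 Mb of SOX10 had a median log2 difference of -0.40 in WM115 clone 1.2 (133 genes), against -0.02 over all genes. The median of chromosome 22 was -0.45 there (400 genes). In the other WM115 clones the median within 5 Mb was -0.08 to -0.03, and in A375 clone 1.2 it was 0.13 (126 genes). The part of these neighbours' shift in the SOX10 result was not tested. These are bulk samples, in which fewer cells with a transcript and less transcript per cell cannot be told apart.

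Across the clone tests against WT, the 9 members passed in 6 of 36 tests in A375 (1 higher, 5 lower) and in 12 of 45 in WM115 (7 higher, 5 lower). These fits did not use the replicate number as a block. All clones of a line were compared with the same WT libraries, so their tests are not independent. Over all genes tested, 2.86% of clone tests passed in A375 (1.60% higher, 1.26% lower) and 18.0% in WM115 (6.82% higher, 11.2% lower). In the 2 clones with lower SOX10 the most members passed. A375 clone 1.2 had 4 of 9, with SOX9 higher and SOX8, SOX4 and SOX11 lower, where 8.53% of all genes passed (5.44% higher, 3.09% lower). WM115 clone 1.2 had 5 of 9, with SOX9, SOX8 and SOX12 higher and SOX2 and SOX6 lower, where 22.6% of all genes passed (11.8% higher, 10.8% lower). That last count depended on libraries that stand apart. Without the third library of clone 1.2 and the second of clone 1.3, only SOX8 passed among 8 members tested, since SOX9 then no longer met the filter.

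In the other clones few members passed. SOX8 alone did in A375 clones 1.1 (1.04% of all genes passed; 0.300% higher, 0.737% lower) and 4.2 (0.557%; 0.138% higher, 0.419% lower), and no member did in clone 4.1 (1.31%; 0.515% higher, 0.797% lower). The replicate numbers of A375 clone 4.1 track those of WT, and with the replicate number as a block SOX5 and SOX13 passed there, as given below. In WM115 the members that passed were SOX8 in clone 1.3 (1.06%; 0.653% higher, 0.406% lower), SOX8 and SOX13 in clones 1.1 (22.0%; 6.30% higher, 15.7% lower) and 4.1 (24.2%; 8.59% higher, 15.6% lower), and SOX8 and SOX6 in clone 4.2 (20.3%; 6.71% higher, 13.6% lower). For the larger WM115 shares, 2 of 9 members is close to the background.

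**Figure D1:**
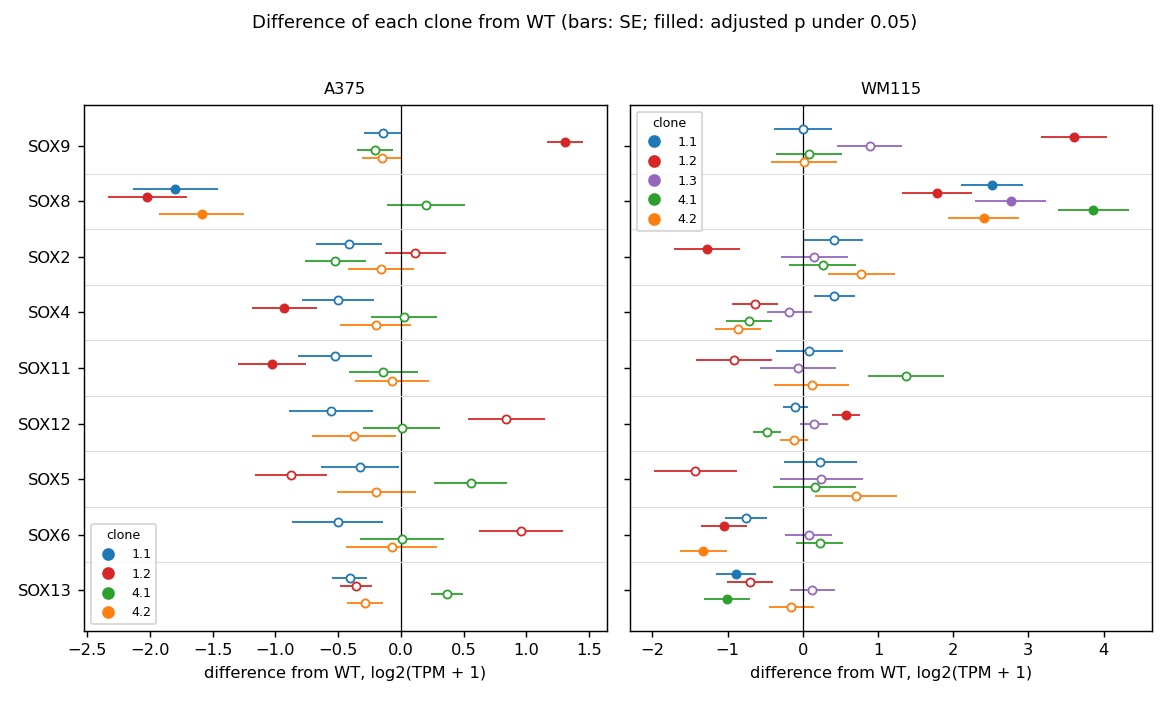
Difference of each clone from WT for the 9 SOX genes in A375 (left) and WM115 (right), on the log2(TPM + 1) scale; bars are standard errors from limma and filled points have an adjusted p under 0.05. SOX9 is filled only for clone 1.2 in both lines, and SOX8 is filled on the left of zero in A375 (3 clones) and on the right in WM115 (5 clones).

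SOX9 (ENSG00000125398, chromosome 17, 72121020 to 72126420, plus strand) rose in clone 1.2 of each line and passed in no other clone. In A375 WT its 4 libraries had 0.227, 0.160, 0.132 and 0.0930 TPM, and in clone 1.2 they had 2.51, 1.46, 1.37 and 2.225 TPM. All 4 libraries of the clone lay above all WT libraries, but at a level close to 1 to 3 TPM. The log2 difference was 1.31 (SE 0.14, limma adjusted p = 1.26e-05). In clones 1.1, 4.1 and 4.2 of A375, SOX9 was between 0 and 0.109 TPM, and all 4 libraries of clone 4.1 were listed at 0.

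In WM115, SOX9 was listed at 0 in all 4 WT libraries and in all 5 libraries of clone 1.1. Clone 1.2 had 18.1, 5.27 and 14.1 TPM. Its log2 difference from WT was 3.61 (SE 0.43, adjusted p = 6.66e-05), a size that depends on the pseudocount because WT is at 0. Clone 1.3 had 0.0750, 4.92 and 0 TPM, so that 1 library was near the range of clone 1.2 and the other two near WT (log2 difference 0.89, adjusted p = 0.393). Its high library is the one whose profile was closest to clone 1.2. Clones 4.1 and 4.2 had 0 to 0.130 TPM.

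The 2 R1 clones of a line therefore differed in SOX9, and this difference was itself tested. Clone 1.2 exceeded clone 1.1 by 1.45 on the log2 scale in A375 (SE 0.15, limma adjusted p = 8.59e-06) and by 3.61 in WM115 (SE 0.42, adjusted p = 7.2e-06). Leaving out any 1 library did not end a SOX9 call in clone 1.2 of either line. SOX9 entered the test only through its high libraries, so these p-values and this check describe the pattern and give no support of their own. In WM115 without 1 library of clone 1.2, SOX9 met the filter only with the second library of clone 1.3. Without both WM115 libraries that stand apart, 2 WM115 libraries reached 1 TPM (18.1 and 5.27 TPM, both of clone 1.2), and SOX9 was not tested there. Genes within 5 Mb of SOX9 had a median log2 difference of 0.05 in A375 clone 1.2 (101 genes) and of -0.06 in WM115 clone 1.2 (112 genes).

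**Figure D2:**
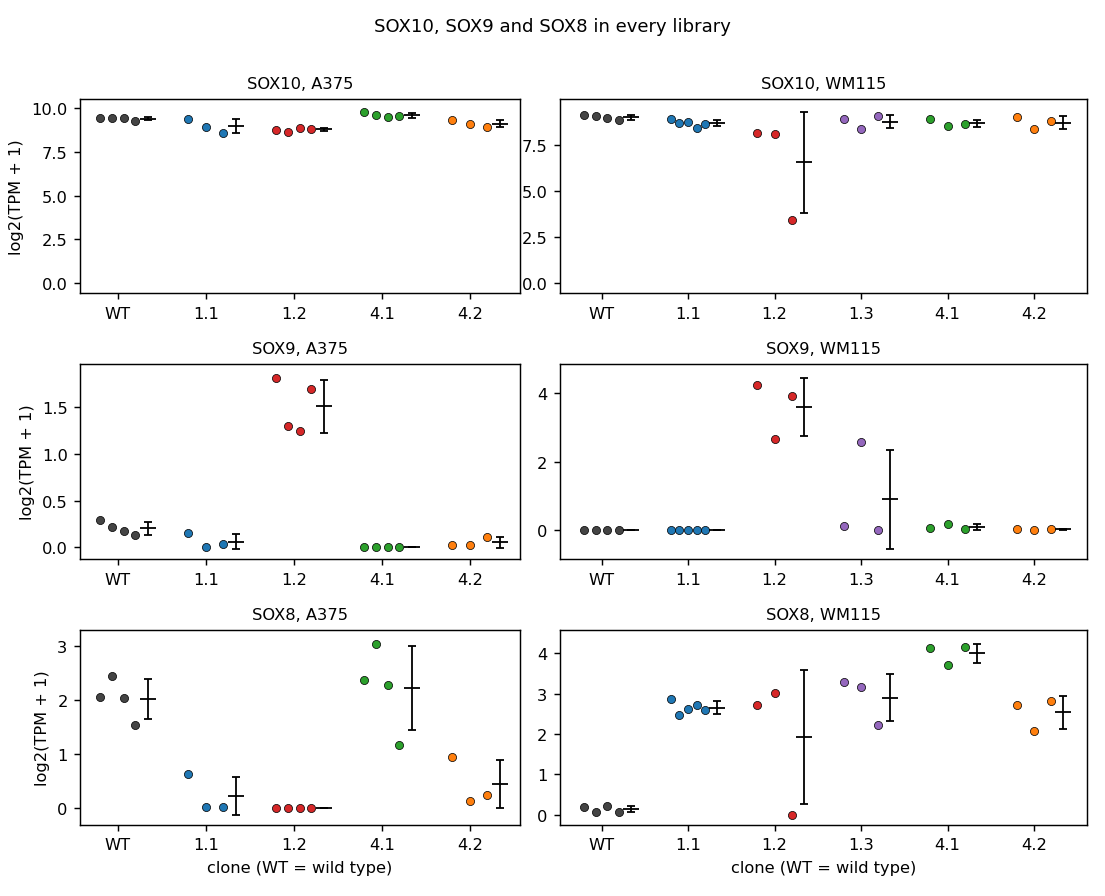
SOX10, SOX9 and SOX8 in every library of A375 (left) and WM115 (right), as log2(TPM + 1); each point is a library, and the bar beside each group is its mean ± SD. SOX9 stands above 1 in clone 1.2 of both lines and in 1 library of WM115 clone 1.3, and SOX8 is high in WT of A375 but near 0 in WT of WM115.

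Level of SOX10 and level of SOX9 did not follow one order within a line. The A375 library lowest in SOX10, from clone 1.1 with 381 TPM, had 0.0250 TPM of SOX9, while the next 4 in order were the libraries of clone 1.2 (406 to 473 TPM). In WM115 the 3 libraries lowest in SOX10 were those of clone 1.2. The fourth, from clone 4.2, had 321 TPM of SOX10 and SOX9 listed at 0, and the fifth was the SOX9-positive library of clone 1.3 (328 TPM of SOX10). Within clone 1.2 of WM115, the library with 9.56 TPM of SOX10 had 14.1 TPM of SOX9, between the other two.

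**Figure D3:**
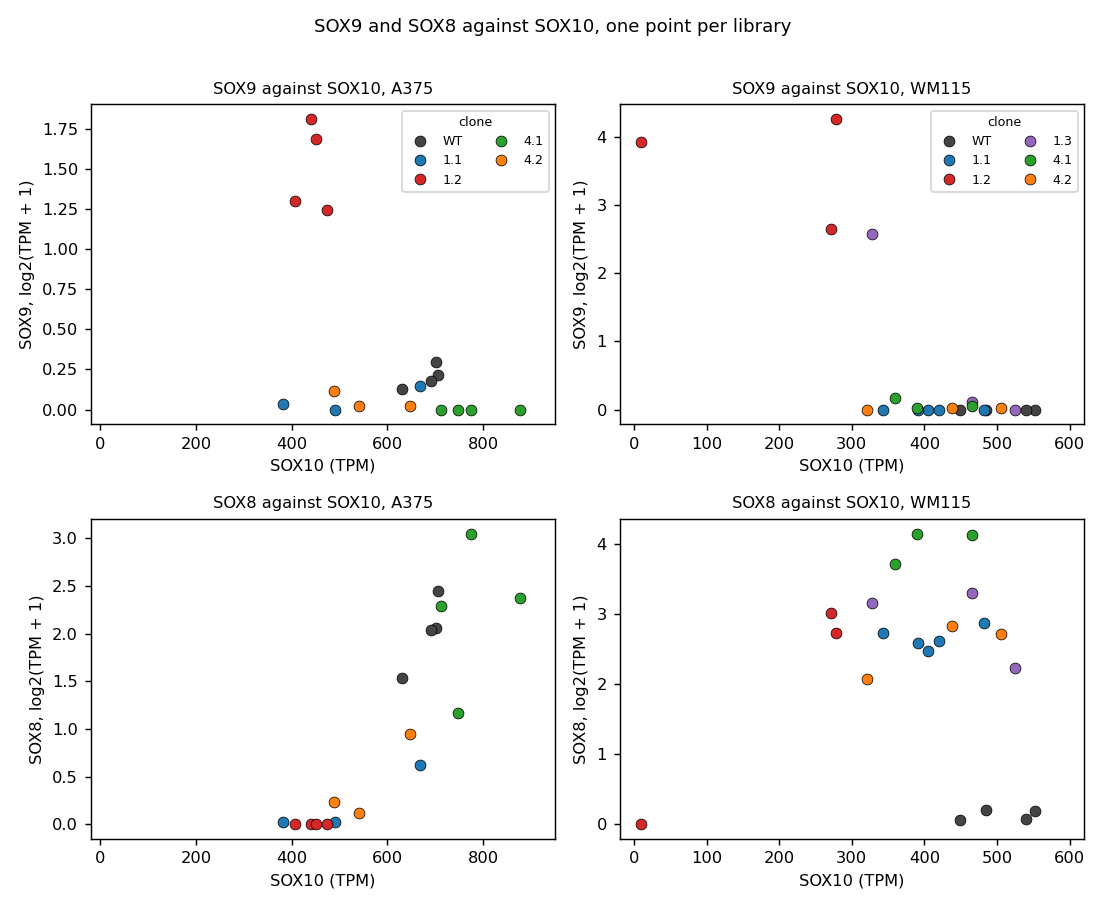
SOX9 (top) and SOX8 (bottom), as log2(TPM + 1), against SOX10 in TPM, one point per library, in A375 (left) and WM115 (right). The SOX9-positive libraries lie at SOX10 levels of at most 473 TPM in A375 and 328 TPM in WM115, next to SOX9-negative libraries at similar SOX10 levels. The A375 libraries lowest in SOX10 have SOX8 near 0, while most WM115 clone libraries have 3.20 to 16.7 TPM of SOX8.

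Some markers of other cell types moved in the same clones. In A375 clone 1.2, 2 of the 4 tested fibroblast markers rose (COL1A1 and LUM). The 7 fibroblast markers summed to 15.45 to 20.9 TPM against 6.28 to 13.1 TPM in WT. The melanocytic sum, which includes SOX10, was 447 to 522 TPM against 686 to 812 TPM. Most of it was SOX10 itself, with means of 443 and 682 TPM. Of the 4 melanocytic markers tested in that clone, only SOX10 passed. The COL1A1 call was lost without the first, the third or the fourth library of clone 1.2 or of WT, or without the first of clone 4.1 (limma adjusted p = 0.0501 to 0.136). Of the 7 fibroblast markers tested in WM115 clone 1.2, COL1A1, PDGFRB and THY1 rose and LUM fell, also without the 2 libraries that stand apart. The fibroblast sum was 480 to 838 TPM against 460 to 674 TPM in WT, where COL1A2 alone had a mean of 545 TPM. COL1A2 did not pass in clone 1.2. PECAM1, the only endothelial marker tested in WM115, rose there, with endothelial sums of 2.74, 5.55 and 16.3 TPM against 0.230 to 3.18 TPM. The highest of these sums is that of the third library, and without that library PECAM1 did not pass (adjusted p = 0.117). Their part in the SOX9 result was not tested.

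SOX8 (ENSG00000005513, chromosome 16, 981808 to 986979, plus strand), which overlaps SOX9 and SOX10 in function in the neural crest, fell in 3 of 4 A375 clones and rose in all 5 WM115 clones. In A375 WT it had 3.16, 4.44, 3.11 and 1.90 TPM. Clone 1.1 had 0.544, 0.0140 and 0.0130 TPM, all below WT (log2 difference -1.80, SE 0.34, limma adjusted p = 0.0115). In clone 1.2 all 4 libraries were listed at 0 (-2.02, SE 0.31, adjusted p = 0.000489; this size depends on the pseudocount). Clone 4.2 had 0.923, 0.0850 and 0.177 TPM (-1.59, SE 0.34, adjusted p = 0.0404).

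In clone 4.1 of A375 SOX8 had 4.17, 7.27, 3.87 and 1.25 TPM, which overlap WT (log2 difference 0.20, adjusted p = 0.917). Clone 4.2 lay below clone 4.1 by a tested -1.79 (SE 0.34, limma adjusted p = 0.00713), although both carry the R4 deletion. This last call was lost without the second or the third library of clone 4.2 (adjusted p = 0.0517 and 0.0560). The call of clone 1.1 was lost without its second library or the third (adjusted p = 0.0857 and 0.0642). That of clone 4.2 against WT was lost without any 1 of 13 libraries, namely the second and the third of clones 1.1 and 4.2, all 4 of clone 1.2, the first and the third of clone 4.1 and the first 3 of WT (adjusted p = 0.0543 to 0.305). The 8 A375 libraries with the least SOX10 (381 to 541 TPM) had at most 0.177 TPM of SOX8, and the other 10 had 0.544 to 7.27 TPM.

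In WM115 WT, SOX8 had 0.142, 0.0490, 0.150 and 0.0410 TPM, and it rose in all 5 clones. Each clone was compared with these same WT libraries, so the 5 results are not independent of each other. Clone 4.1 was highest, with 16.5, 12.1 and 16.7 TPM (log2 difference 3.86, SE 0.47, limma adjusted p = 2e-05). Clone 1.3 had 8.83, 7.92 and 3.70 TPM (2.76, adjusted p = 0.00363). The 5 libraries of clone 1.1 ranged from 4.52 to 6.33 TPM around a median of 5.12 TPM (2.52, adjusted p = 0.000358). Clone 4.2 had 5.56, 3.20 and 6.07 TPM (2.41, adjusted p = 0.00201). In these 4 clones every library exceeded every WT library.

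Some markers of other cell types moved in the same WM115 clones. PECAM1 rose in clones 4.1 (log2 difference 1.21, limma adjusted p = 0.0431) and 4.2 (1.57, adjusted p = 0.0140). The first of these calls was lost without any 1 of 9 libraries, namely the first, second and the fourth of clone 1.1, all 3 of clone 4.1 and the first, the third and the fourth of WT (adjusted p = 0.0501 to 0.134). The other was lost without the second library of clone 4.2 or the fourth of WT (adjusted p = 0.0814 and 0.0501). Endothelial sums were at least 3.06 TPM in clone 4.1 and 3.28 to 7.46 TPM in clone 4.2, against 0.230 to 3.18 TPM in WT. Of the 7 fibroblast markers, 3 passed as higher in clone 4.1 (THY1, DCN and COL3A1), and in clone 1.1 COL3A1 and DCN passed as higher and LUM and PDGFRB as lower. The COL3A1 and PDGFRB calls and that of DCN in clone 1.1 were each lost without at least 1 single library. LUM passed as lower in clone 4.2, a call that was also lost without 1 of 4 libraries. Fibroblast sums, in WT mostly COL1A2, were 553 to 866 TPM in clone 1.1 and 592 to 679 TPM in clone 4.1. They were 543 to 744 TPM in clone 4.2, against 460 to 674 TPM in WT. The keratinocyte gene KRT14 rose in clones 4.1 and 4.2 (adjusted p = 0.000385 and 0.00132; log2 difference 1.34 in clone 4.2), and KRT10 passed as higher in clone 4.2, a call lost without 1 of 3 libraries, while KRT5 was listed at 0 there. Keratinocyte sums were 57.4 to 72.3 TPM and 59.8 to 79.2 TPM in these clones, against 40.3 to 56.4 TPM in WT. In clone 4.2 and WT most of the sum was KRT10, with means of 69.9 and 47.6 TPM. KRT10 did not pass in clone 4.1. KRT14 had means of 2.52 and 2.13 TPM in clones 4.1 and 4.2, against 0.23 TPM in WT. None of these markers passed in clone 1.3, where SOX8 rose. Few genes of any kind passed there (1.06%, against 22.0%, 24.2% and 20.3% in clones 1.1, 4.1 and 4.2). THY1 did pass in clone 1.3 without its library that was closest to WT (log2 difference 1.82, limma adjusted p = 0.0312). With all libraries its difference was 1.41 (adjusted p = 0.151). The part of these markers in the SOX8 result was not tested.

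Clone 1.2 of WM115 was split, with 5.61 and 7.07 TPM of SOX8 in the first 2 libraries and 0 in the third, the library with the least SOX10 (log2 difference 1.78, SE 0.47, limma adjusted p = 0.0130). The call was lost without the first or the second of them (adjusted p = 0.0559 and 0.0651), and the difference was 2.74 without the third (adjusted p = 7.4e-06). Clones 4.1 and 4.2 did not pass against each other (-1.46, adjusted p = 0.0909), but did without the third library of clone 1.2 (adjusted p = 0.000779), whose spread enters the common estimate. Clones 1.2 and 1.1 passed against each other, of the libraries left out singly, only without the second of clone 1.2 (-1.29, adjusted p = 0.0352). Ribosomal protein genes made up 11.1% to 12.8% of the TPM in the WM115 WT libraries. In the clone libraries they made up 15.1% to 17.4%, except 10.6% in the third of clone 1.3. The part of this difference in the SOX8 result was not tested. Mitochondrial genes made up 13.7% to 15.6% of the TPM in the WM115 WT libraries and 4.71% to 19.4% in the clones. With libraries over 7.5% only, clone 4.1 kept just its library at 10.76%, so no test result is given for it. Clone 1.1 kept its libraries at 13.22% and 14.4%, and SOX8 still passed there. SOX8 did not pass in clones 1.2, 1.3 and 4.2 (adjusted p = 0.0569, 0.0713 and 0.0501). Clone 4.2 kept its libraries at 12.72% and 11.17%.

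Whether the deletions act differently on SOX8 in the 2 lines was tested over clone means. The R1 effect in WM115 exceeded that in A375 by 4.06 on the log2 scale (SE 1.15, unadjusted p = 0.00872, limma adjusted p = 0.999881), and the R4 effect by 3.83 (SE 1.15, unadjusted p = 0.0116, adjusted p = 0.999891). Neither passed over 15287 genes. The genes within 5 Mb of SOX8 had median log2 differences of -0.56 to -0.18 in the 5 WM115 clones (183 genes), against a median of all genes of -0.12 to -0.02. In A375 the same median ran from -0.01 to 0.12 (179 genes).

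SOX2 (ENSG00000181449, chromosome 3, 181711924 to 181714436, plus strand), a factor of stem cells and neural progenitors, was present in both lines. A375 libraries had 4.86 to 16.5 TPM (median 9.33 TPM), and none of the 4 clones passed against WT. In WM115 WT it had 8.41, 9.16, 9.60 and 4.47 TPM, and in clone 1.2 it had 5.53, 5.96 and 0 TPM. It fell there by 1.27 on the log2 scale (SE 0.44, limma adjusted p = 0.0459), a call that rests on the third library: without it the difference was -0.36 (adjusted p = 0.377). The call was also lost without any 1 of 14 other libraries, namely all of clones 1.1, 4.1 and 4.2 and the first 3 of WT (adjusted p = 0.0524 to 0.1004), and without the first of clone 1.3 (adjusted p = 0.0508). In clone 4.2 SOX2 had 16.2, 12.7 and 12.6 TPM, all above WT; of the libraries left out singly, it passed only without the third of clone 1.2 (0.78, adjusted p = 0.226 with it and 0.0108 without).

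SOX4 (ENSG00000124766, chromosome 6, 21592768 to 21598619, plus strand), the SOXC member often active in tumours, had 10.4, 18.3, 7.06 and 6.94 TPM in A375 WT and 5.01, 3.71, 4.99 and 5.38 TPM in clone 1.2. All 4 libraries of the clone lay below WT (log2 difference -0.93, SE 0.26, limma adjusted p = 0.0359). The call was lost without any 1 library of clone 1.2 or the first or second of WT (adjusted p = 0.0655 to 0.0851). In WM115, WT had 33.9, 35.0, 17.6 and 27.2 TPM, and no clone passed against it. Clone 1.2 (17.5, 24.9 and 11.7 TPM) was below clone 1.1 (22.3 to 56.1 TPM) by a tested -1.06 (SE 0.29, adjusted p = 0.00882; -0.80 and 0.0856 without the third library of clone 1.2). Clone 4.2 (17.5, 11.4 and 16.0 TPM) had a difference of -0.86 from WT with an adjusted p of 0.0542, which was 0.0188 to 0.0488 without any 1 of 7 libraries (the first and the fourth of clone 1.1, the second and the third of clones 1.2 and 1.3, and the third of WT). Without that WT library clone 4.1 passed as well (-0.92, adjusted p = 0.0351). Genes within 5 Mb of SOX4 had a median log2 difference of -0.48 in clone 4.2 and -0.39 in clone 4.1 (53 genes), against -0.10 over all genes in each. In clone 1.1 that median was -0.31, while SOX4 had a difference of 0.42. The part of these neighbours' shift in the SOX4 result was not tested.

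SOX11 (ENSG00000176887, chromosome 2, 5692667 to 5701385, plus strand), a SOXC factor of developing neurons, had 32.2, 27.8, 15.9 and 24.3 TPM in A375 WT and 10.9, 11.4, 13.6 and 9.96 TPM in clone 1.2. It fell by 1.03 on the log2 scale there (SE 0.27, limma adjusted p = 0.0260), with all 4 libraries below WT. The call was lost without the first or the fourth library of clone 1.2 or the first, second or the fourth of WT (adjusted p = 0.0528 to 0.0875). In WM115 its highest clone was 4.1, with 20.2, 17.0 and 19.9 TPM against 4.26 to 8.10 TPM in WT. All 3 libraries lay above WT, yet the difference of 1.37 just missed the threshold (SE 0.50, adjusted p = 0.0539). It passed without the first, second or the third library of clone 1.2 (adjusted p = 0.0496, 0.0268 and 0.000862). The third library of clone 1.2 held 0.006 TPM of SOX11, against 5.73 and 9.12 TPM in the other two of its clone. Without it, clone 4.2 also lay below clone 4.1 (-1.26, adjusted p = 0.00651), and without the second library of clone 1.2 that clone lay below WT (-1.57, adjusted p = 0.0263) and below clone 1.1 (-1.66, adjusted p = 0.0110).

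SOX12 (ENSG00000177732, chromosome 20, 325595 to 330224, plus strand) is the third SOXC gene. WM115 WT had 24.5, 22.8, 18.4 and 20.9 TPM and clone 1.2 had 27.3, 31.3 and 40.2 TPM. All 3 exceeded WT, with a log2 difference of 0.57 (SE 0.19, limma adjusted p = 0.0353), which was 0.42 (adjusted p = 0.227) without the third library. The call was also lost without the second library of clone 1.2 or the second, the third or the fourth of WT (adjusted p = 0.0539 to 0.0801). Against clone 1.1 it was 0.67 (adjusted p = 0.00717; 0.53 and 0.0694 without the third library). A375 clone 1.2 had 51.5, 27.5, 41.7 and 63.3 TPM. That was above clone 1.1 (23.3, 16.6 and 10.8 TPM) by 1.39 (SE 0.33, adjusted p = 0.0115; 0.0646 without the third library of clone 1.1), but against WT (16.1 to 38.7 TPM) it did not pass (0.84, adjusted p = 0.112). It did pass against WT without the second library of either group (1.06 in both, adjusted p = 0.0456 and 0.0408). NRSN2-AS1, which overlaps SOX12 on the other strand, had a median of 4.46 TPM, and the labels do not say whether reads were assigned by strand.

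**Figure D4:**
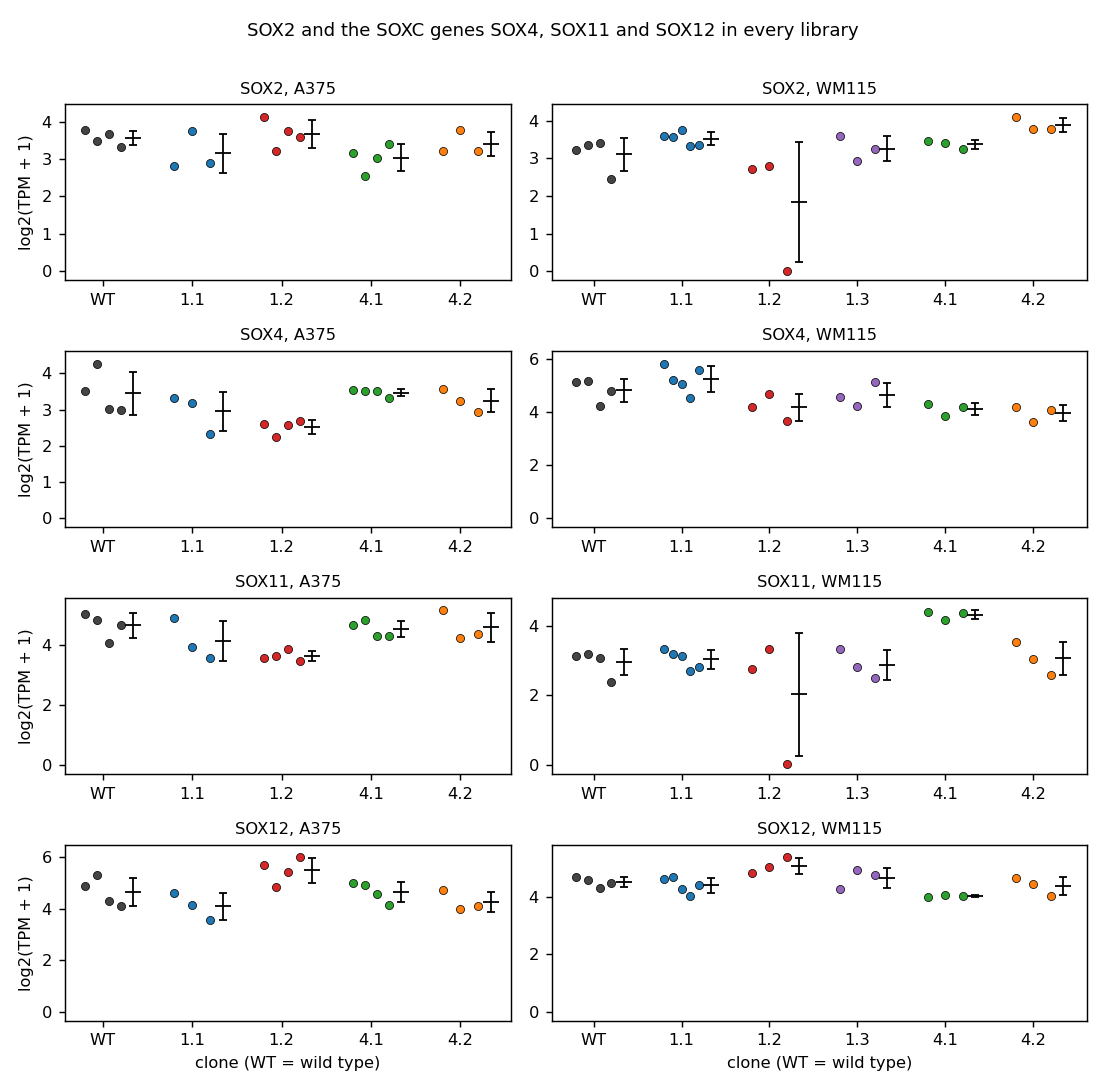
SOX2 and the SOXC genes SOX4, SOX11 and SOX12 in every library of A375 (left) and WM115 (right), as log2(TPM + 1); each point is a library, and the bar beside each group is its mean ± SD. The third library of WM115 clone 1.2 is at 0 for SOX2 and at 0.006 TPM for SOX11 but is the highest of its clone for SOX12.

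The SOXD gene SOX5 (ENSG00000134532, chromosome 12, 23529500 to 24562544, minus strand), which modulates SOX10 activity in melanocytes, was the most abundant member in A375. WT had 201, 231, 156 and 125 TPM and clone 1.2 had 81.5, 79.5, 104 and 117 TPM. All 4 lay below WT, with a difference of -0.87 that did not pass (SE 0.29, limma adjusted p = 0.0733). It passed without the first or the third library of clone 1.1 (adjusted p = 0.0306 and 0.0476). Clone 4.1 had 288, 283, 271 and 193 TPM. Its replicate numbers track those of WT, and with the replicate number as a block its difference of 0.56 passed for SOX5 (adjusted p = 0.00651), as did 0.37 for SOX13 (adjusted p = 0.0314). Without the block the adjusted p was 0.541 and 0.236.

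In WM115, SOX5 was lower in level, with 31.4, 35.9, 40.1 and 19.4 TPM in WT. Clone 1.2 had 29.4, 22.0 and 1.32 TPM, a difference from WT of -1.43 that did not pass (limma adjusted p = 0.0668) and from clone 1.1 of -1.66 that did (adjusted p = 0.0191). Without the third library the latter was -0.49 (adjusted p = 0.152). The difference from WT passed without the first or the second library of clone 1.2 (-2.11 and -1.91, adjusted p = 0.0105 and 0.0262). Clone 4.2 had 54.7, 45.4 and 52.2 TPM, all above WT; of the libraries left out singly, it passed only without the third of clone 1.2 (0.71, adjusted p = 0.378 with it and 0.0225 without).

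The make-up of the SOX5 transcripts, given here without a test, was not alike in the 2 lines. SOX5-207 made up 34.9% of the gene's TPM in A375 and 44.4% in WM115. SOX5-203 made up 32.0% in A375, with 57.5 ± 16.2 TPM in WT (SD, n = 4), and was listed at 0 in all 4 WM115 WT libraries. SOX5-214 made up 20.4% in WM115, with 6.57 ± 1.91 TPM in WT, against 1.53 ± 2.78 TPM in A375 WT. SOX5-207 and SOX5-214 start 612.8 kb, and SOX5-203 starts 977.9 kb, downstream of the RefSeq start, whose window of 250 bases holds ACAATG at 180 and 138 bases before that start. SOX9, SOX2, SOX4, SOX11 and SOX12 each have 1 transcript in the table, so their gene and transcript values are the same.

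SOX6 (ENSG00000110693, chromosome 11, 15966449 to 16739591, minus strand), the partner of SOX5 in cartilage, differed between clones in both lines. WM115 WT had 5.19, 4.76, 6.18 and 4.65 TPM. In clone 4.2 the values were 0.680, 0.921 and 3.63 TPM, all below WT (log2 difference -1.32, SE 0.31, limma adjusted p = 0.00653), and lay below clone 4.1 (7.62, 5.77 and 5.396 TPM) by a tested -1.55 (adjusted p = 0.00748; 0.0507 without the second library of clone 4.2). Clone 1.2 had 2.88, 2.48 and 0.969 TPM (-1.05, adjusted p = 0.0231; -0.75 and 0.184 without the third library). The 5 libraries of clone 1.1 were all below WT, at 1.84 to 3.12 TPM with a median of 2.87 TPM, with an adjusted p of 0.0548. That comparison (-0.76) passed without the third library of clone 1.2, the second of clone 1.3 or the first or the third of clone 4.2 (adjusted p = 0.0201 to 0.0447).

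In A375, SOX6 was lower, with 0.558, 1.76, 0.800 and 2.29 TPM in WT. Clone 1.2, with 2.995, 1.53, 4.36 and 5.655 TPM, exceeded clone 1.1 (1.88, 0.0830 and 0.274 TPM) by 1.46 (SE 0.36, limma adjusted p = 0.0137). The call was lost without the second or the third library of clone 1.1 or the fourth of clone 1.2 (adjusted p = 0.0912, 0.0599 and 0.0504). Against WT it did not pass (0.96, adjusted p = 0.0925), except without the first library of clone 1.1 (adjusted p = 0.0488) or the second of clone 1.2 (1.22, adjusted p = 0.0304). C11orf58, which overlaps SOX6 on the other strand, had a median of 144.8 TPM, and reads of the 2 genes cannot be told apart if strand was not used.

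SOX13 (ENSG00000143842, chromosome 1, 204073115 to 204127743, plus strand), the third SOXD gene, had 30.5, 37.3, 27.8 and 36.9 TPM in WM115 WT. Clone 1.1 ranged from 11.9 to 22.5 TPM with a median of 17.5 TPM (log2 difference -0.89, SE 0.27, limma adjusted p = 0.0233), and clone 4.1 had 16.9, 17.6 and 13.5 TPM (-1.003, SE 0.30, adjusted p = 0.0229). All libraries of both clones lay below WT. With median-of-ratios scaling the first of these did not pass (-0.75, adjusted p = 0.0543). It was also lost without the third library of clone 1.1 or the second or the fourth of WT (adjusted p = 0.0637 to 0.0678). The second was lost without any library of clone 4.1 or the second or the fourth of WT (adjusted p = 0.0504 to 0.0793). Clone 1.2 (23.3, 28.7 and 11.5 TPM) passed, of the libraries left out singly, only without its second (-0.96, adjusted p = 0.0433) or the third of clone 1.3 (-0.70, adjusted p = 0.0401). The third library of clone 1.3 had 67.9 TPM, the highest of all. In A375 clone 4.2 (11.2, 11.1 and 9.33 TPM) was below clone 4.1 (18.4, 18.0, 16.2 and 16.1 TPM) by 0.66, that is a log2 difference of -0.66 (adjusted p = 0.0148), and this was lost without the second or the third library of clone 4.2 (adjusted p = 0.0503 and 0.115).

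**Figure D5:**
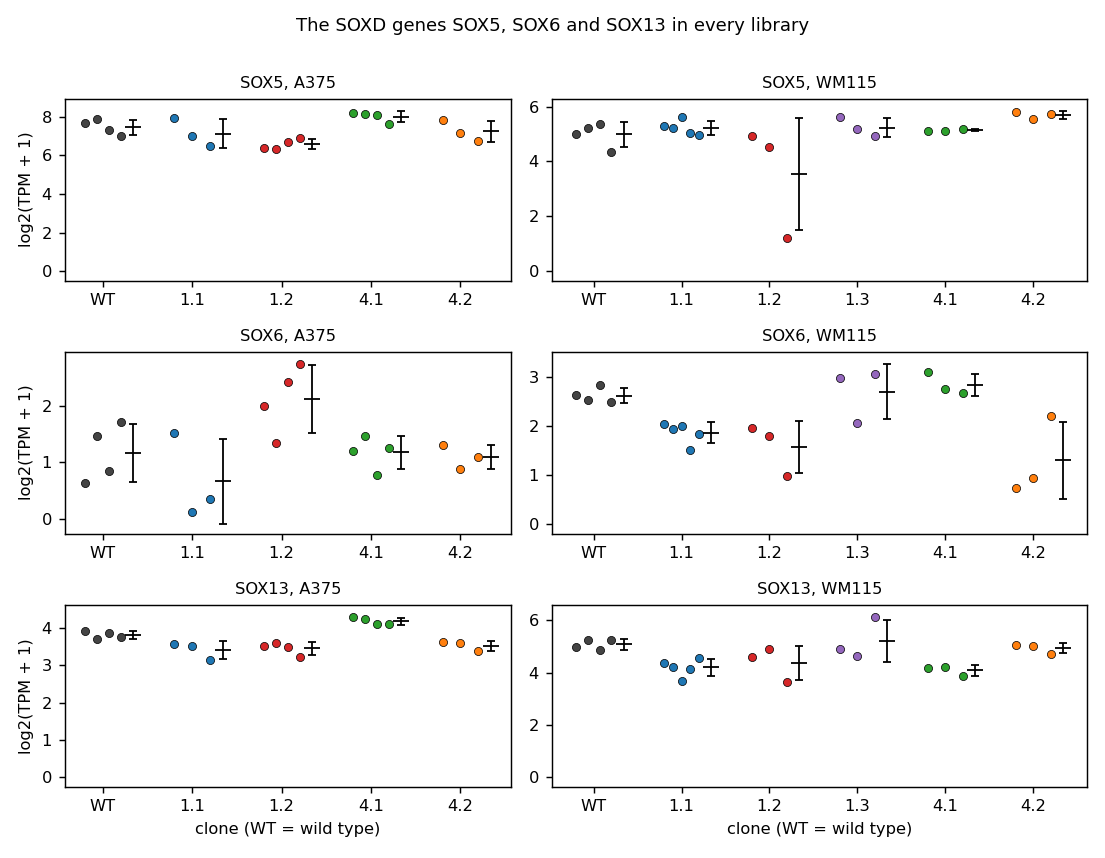
The SOXD genes SOX5, SOX6 and SOX13 in every library of A375 (left) and WM115 (right), as log2(TPM + 1); each point is a library, and the bar beside each group is its mean ± SD. In WT, SOX5 is higher and SOX13 lower in A375 than in WM115, and 2 of the 3 libraries of WM115 clone 4.2 are under 1 TPM for SOX6.

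Clones that carry the same deletion differed in 11 of 36 member tests. Between A375 clones 1.2 and 1.1 these were SOX9, SOX6 and SOX12, all higher in clone 1.2 (3 of 9, where 13.2% of all genes passed, 9.05% higher and 4.15% lower). Between A375 clones 4.2 and 4.1 they were SOX8 and SOX13, both lower in clone 4.2 (2 of 9; 3.95%, 1.84% higher and 2.11% lower). Between WM115 clones 1.2 and 1.1, SOX9 and SOX12 were higher and SOX2, SOX4 and SOX5 lower in clone 1.2 (5 of 9; 35.5%, 23.0% higher and 12.4% lower). The SOX2 difference there was -1.69 (adjusted p = 0.00502), and -0.77 (adjusted p = 0.0215) without the third library of clone 1.2. Between WM115 clones 4.2 and 4.1 SOX6 was lower in clone 4.2 (1 of 9; 6.75%, 2.76% higher and 3.99% lower). With each clone as 1 value, and line as a covariate, none of 27 member tests passed for R1 against WT, R4 against WT or R1 against R4 (0.00% of all genes in each). At an unadjusted p under 0.05 there were 267, 339 and 742 of 15287 genes. SOX9 had a difference of 1.26 (SE 0.67) for R1 against R4, and SOX8 one of -1.10 (SE 0.70), both with a limma adjusted p of 0.966656.

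The unedited lines differed in 6 of the 8 members tested, where 47.9% of all genes passed (26.3% higher and 21.6% lower in WM115). WM115 WT had less SOX8 (log2 difference -1.89), SOX5 (-2.46, from 178 ± 47.0 to 31.7 ± 8.93 TPM, SD, n = 4 each) and SOX11 (-1.71), and more SOX4 (1.38), SOX6 (1.46) and SOX13 (1.27, from 13.1 ± 0.938 to 33.1 ± 4.71 TPM). Their limma adjusted p ran from 4.5e-05 for SOX5 to 0.00494 for SOX4. SOX2 (-0.46) and SOX12 (-0.16) did not pass, and SOX9 was not tested. Each line is a single cell line, so the difference compares these lines alone.

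Other genes of the family and of the pathways in which these factors act were read from lists. Over all genes tested, 2.86% of clone tests passed in A375 and 18.0% in WM115. Of 9 further SOX genes, 2 were tested in each line, and 1 of 18 clone tests passed: SOX15 in WM115 clone 4.1 (0.895 ± 0.431 against 1.72 ± 0.251 TPM, log2 difference -0.54, limma adjusted p = 0.0413). This was lost without any 1 of 6 libraries (the second of clone 1.1, the first or second of clone 4.1, and the first 3 of WT; adjusted p = 0.0503 to 0.201).

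Cartilage genes bound by SOX9 with SOX5 and SOX6 passed in 4 of 28 A375 tests, all lower, and in 14 of 45 WM115 tests, 11 higher and 3 lower. Of the 12 genes listed, 7 were tested in A375 and 9 in WM115. The shares over all genes were 2.86% in A375 (1.60% higher, 1.26% lower) and 18.0% in WM115 (6.82% higher, 11.2% lower). ACAN, the aggrecan core protein, passed most often. ACAN fell in A375 clone 1.2 to 1.21 ± 0.415 TPM from 22.1 ± 22.4 TPM in WT (log2 difference -2.99, limma adjusted p = 0.00072). It also fell in A375 clone 1.1, where SOX9 did not pass (-2.27, adjusted p = 0.0449), a call that was lost without any 1 of 15 libraries of the line (adjusted p = 0.0513 to 0.220). In WM115 it rose from 0.520 ± 0.250 TPM in WT to 6.70 ± 5.92 TPM in clone 1.2 (2.09, adjusted p = 0.00874) and to 22.4 ± 6.74 TPM in clone 4.1 (3.92, adjusted p = 4.1e-05), where SOX9 was at most 0.130 TPM. ACAN also rose in WM115 clones 1.1 and 1.3. COL9A2, a collagen IX chain, rose in WM115 clones 4.1 (1.40, adjusted p = 5.45e-05) and 4.2 (0.95, adjusted p = 0.0021). It also fell in A375 clone 1.2 (-1.54, adjusted p = 0.0178) and rose in WM115 clone 1.2 (0.59, adjusted p = 0.0310). The A375 call was lost without the second or the fourth library of clone 1.2 or the first of WT (adjusted p = 0.0515 to 0.0552). The WM115 call was lost without the first or the third library of clone 1.2 or the second or the fourth of WT (adjusted p = 0.0652 to 0.124). Without the 2 WM115 libraries that stand apart, 10 of 40 WM115 tests of this list passed, 9 higher and 1 lower. The median log2 difference of the tested cartilage genes was -0.54 in A375 clone 1.2 (all genes 0.07) and 0.03 in WM115 clone 1.2 (all genes -0.02).

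Melanocyte and glia genes bound by SOX10 and other SOXE factors passed in 5 of 36 A375 tests, all lower, and in 14 of 55 WM115 tests, 13 of them lower. Among all genes, 2.86% of A375 clone tests passed (1.26% lower) and 18.0% of WM115 clone tests (11.2% lower). MITF, DCT and EDNRB were among those that fell in WM115 clone 1.2, and DCT and EDNRB also passed there without the 2 libraries that stand apart. The MITF call in that clone was lost without the third library of clone 1.2 (-0.97, adjusted p = 0.240) or the first, second or the fourth of WT (adjusted p = 0.0579 to 0.0596), and EDNRB was at -1.10 (adjusted p = 0.0332) without the third library of clone 1.2. MITF, the master regulator of melanocytes, fell in WM115 clones 4.1 and 4.2 (-3.40 and -2.80, limma adjusted p = 0.000793 and 0.00412). It also fell in A375 clones 1.1 (-1.31, adjusted p = 0.00165) and 4.2 (-0.96, adjusted p = 0.0268), and did not pass in A375 clone 1.2. The call in A375 clone 4.2 was lost without the second or the third library of that clone or any of the first 3 of WT (adjusted p = 0.0644 to 0.226). DCT, a pigment enzyme, fell in WM115 clones 1.2, 4.1 and 4.2 (log2 differences of -5.70, -6.50 and -6.89). EDNRB, a receptor of the neural crest, fell in clone 1.2 of both lines (-1.76 in A375, adjusted p = 0.0149; -3.01 in WM115, adjusted p = 0.0194). It was at 10.1 ± 1.08 TPM in A375 clone 1.2 against 38.6 ± 14.3 TPM in WT.

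Genes linked to SOX4 and SOX11 in neurons (4 of 7 listed were tested) passed in none of 16 A375 tests and in 2 of 20 WM115 tests, both higher. Genes of the SOX2 network in stem cells passed in none of 12 A375 tests and in 10 of 15 WM115 tests, 3 higher and 7 lower. Only 3 of the 6 network genes were tested (in WM115 LIN28B, SALL4 and NES), each clone against the same WT libraries. Among all genes, 2.86% of A375 clone tests passed and 18.0% of WM115 ones (6.82% higher, 11.2% lower). LIN28B, which blocks maturation of let-7 microRNAs, fell in all 5 WM115 clones, from 4.24 ± 0.301 TPM in WT to between 1.28 ± 0.347 TPM in clone 4.2 and 2.31 ± 0.137 TPM in clone 1.2. With the replicate block in A375 clone 4.1, ACAN (0.79), HAPLN1 (0.49) and the neural progenitor filament gene NES (0.54) passed too (adjusted p = 0.0436, 0.0436 and 0.0104).

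Over the 11 group means, each centred on its line, the genes most like SOX9 were DNAH11 (r = 0.988), AC046134.2 (r = 0.981) and WNT3 (r = 0.981) among 15286 genes. These means share libraries and line, and the values describe the pattern only. DNAH11, a dynein heavy chain of cilia, had 3.45 to 15.6 TPM in WM115 clone 1.2 and at most 0.0730 TPM in WT, and 3.86 TPM in 1 library of clone 1.3. WNT3, a secreted signalling protein, had 1.39 to 3.32 TPM in WM115 clone 1.2 against 0.219 to 0.418 TPM in WT. In A375, DNAH11 had 0.915 to 2.54 TPM in clone 1.2, just above its WT range of 0.0300 to 0.874 TPM, and WNT3 had 2.21 to 3.66 TPM, overlapping its WT range of 1.53 to 3.01 TPM. The genes most like SOX4 were AC010163.1 (r = 0.983), AL161772.1 (r = 0.970) and DAAM2 (r = 0.964), and those most like SOX5 were LAMA4 (r = 0.980), NLGN1 (r = 0.959) and COL9A3 (r = 0.947). COL9A3, a collagen IX chain on the cartilage list, had 18.2 to 267 TPM in WM115 clone 1.2 against 211 to 367 TPM in WT.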

How the data were processed

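The authors deposited gene and transcript tables in TPM; the submitters' processing notes name DRAGEN and GRCh38, and the annotation release is not given in the sources used here. Gene TPM summed to 999999.9 to 1000000.1 per library, without counts, so depth is unknown. Of the gene table, 200 repeated lines were used once and 6 columns that match no sample were left out. With limma 3.58.1 (R 4.3.3), log2(TPM + 1) was fitted per line with 1 coefficient per group, empirical Bayes moderation and a variance trend, on genes with at least 1 TPM in at least 3 libraries (16692 in A375, 16997 in WM115). Tests were two-sided. Clone means of both lines (8 clones and 2 WT means, clone 1.3 left out) were fitted with line as a covariate. The script was tested on simulated data.

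Samples were grouped by line and clone. Replicate numbers paired libraries with WT only in A375 clone 4.1 (correlations of deviations 0.326 to 0.776 over 4 pairs). Genes named are all members, SOX10, per list up to 4 genes with the most clones passed, and the 3 most alike to SOX9, SOX4 and SOX5; further names were added where a count is small. A single gene of the melanocyte and glia list is not reported here by itself. Members, lists and tests were chosen with earlier results of these data known. Promoters are RefSeq sequences. Alternatives were another pseudocount (0.1), filters, scalings, spread estimates, a replicate block, mitochondrial share and leaving out libraries; leaving out the 2 WM115 libraries that stand apart and the region-by-line test were chosen after seeing the data.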

Additional observations from a re-analysis of the deposited data

Results flagged for a closer look

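In some cases every library of a clone lay on one side of WT in A375 and on the other side in WM115, for clones with the same number. How often this holds among all genes was not counted, so the cases are a description only. SOX8 did so in clone 1.1, where the difference from WT in WM115 exceeded that in A375 by 4.3189 on the log2(TPM + 1) scale, and in clone 4.2, by 3.9929. For SOX8 the difference between the lines was tested over clones and did not pass after adjustment (unadjusted p = 0.00872 for R1 and 0.0116 for R4; limma adjusted p = 0.999881 and 0.999891). SOX13 did so in clone 4.1, with a value of -1.3726, all A375 libraries being above and all WM115 libraries below WT. SOX9 did so in clone 4.1, with a value of 0.2889, but all of these libraries were at most 0.227 TPM. Clones of the same number in the 2 lines are different clones, and the clone-by-clone differences were not tested. In the 46 sets of 4 or 5 libraries examined, no single library was far enough from the others of its group to stand out by Dixon's criterion. Groups of 3 libraries were not examined. They include WM115 clones 1.2 and 1.3, so the check could not find the 2 libraries that stand apart.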

How the results depend on the processing

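Of 3881 values of member comparisons recomputed under the alternatives, 3695 stayed on the same side of the threshold, 127 no longer passed, 59 newly passed and none reversed. The 6 A375 member tests became 2 with a mean TPM of at least 5, where fewer genes are tested, 3 with no filter, and 0 with libraries of under 2.5% mitochondrial TPM only, where SOX9 was not tested and fewer libraries remain. The 12 in WM115 became fewer with libraries over 7.5% mitochondrial TPM only. No count is given for that setting, because clone 4.1 then keeps just its library at 10.76%. The 11 between clones became 6 with a mean TPM of at least 5. The range on leaving out each library was 3 to 8 in A375 (3 without the first or the fourth library of clone 1.2 or the first of WT), 8 to 15 in WM115, 9 to 13 between clones, 6 to 6 between WT lines, and 0 to 0 for regions. Without both WM115 libraries that stand apart, 14 WM115 tests passed.

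With the replicate block the counts were 4 in A375, 10 in WM115 and 6 between WT lines. The numbers share only a name outside A375 clone 4.1. Median-of-ratios scaling moved the median of all genes in WM115 clones 1.1, 4.1 and 4.2 from -0.118, -0.104 and -0.0964 to about 0, and the share of higher calls among all genes from 28.7%, 35.5% and 33.1% to 53.2%, 56.6% and 52.5%. In A375 clone 1.2 quantile normalization moved it from 63.8% to 47.3%. Depth is unknown, so levels under 1 TPM, such as SOX9 in most groups, have no stated error of counting.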
